A study of Mus musculus with 12 samples.

Results

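The clock output transcription factors are the genes through which the circadian clock of a cell passes its daily rhythm on to other genes and back onto itself. They were taken as 7 genes by name, the PAR bZIP activators Dbp, Tef and Hlf, their opponent Nfil3, and the repressors Ciart, Bhlhe40 and Bhlhe41, each through its brightest probe set by the platform's gene symbols. Each of the 7 had 1 probe set, so 7 of 22206 transcript probe sets and 7 of 19505 named genes were described, and all 7 were among the 13653 genes bright enough to be tested. The arrays held myocardial tissue of 12 mice, 4 in each of 3 groups. AngIV mice had been made diabetic with streptozotocin, a toxin of the pancreatic beta cell given for 5 days, and received a high dose of angiotensin IV, a short peptide derived from angiotensin II, between weeks 8 and 24 at a daily 2.88 mg/kg. DM mice had received streptozotocin, with no peptide named, and NC mice had received vehicle for 5 days in place of the toxin. A mouse counted as diabetic when its fasting glucose reached 16.7 mM or more 2 weeks after the injections, and the labels give 6 months for the tissue of all groups. A disease state tag contradicts the sample titles and was not used, and beyond a statement of 4 mice per group nothing says that the arrays are of separate animals, so each was taken as 1 mouse. The labels give no time of day for the collection of the hearts. A shift in phase of the clock, a change in its average level and unequal hours of collection therefore cannot be told apart.

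In mammalian cells the activator pair BMAL1 and CLOCK binds E-boxes in DNA and switches on genes that include their own repressors. DBP, TEF and HLF, bZIP proteins with a proline- and acidic-rich domain, activate genes through D-boxes, and NFIL3, a bZIP repressor, competes for the same D-boxes. BHLHE40 and BHLHE41, also known as DEC proteins, repress through E-boxes, and CIART, also known as CHRONO, binds BMAL1 and blocks its activity. The levels of these RNAs swing over the day in many tissues, the heart among them.

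The promoters of Tef and Ciart, the members called in the tests, are shown with the E-box in capitals, since the letters CACGTG are the site of BMAL1 and CLOCK. The sequences are RefSeq's for GRCm38.p6 and run 5′ to 3′ from 250 bases before to 50 bases after an annotated start, for Ciart on the minus strand at chr3:95882179-95882478 and for Tef on the plus strand at chr15:81802423-81802722 and chr15:81811164-81811463, which are 2 alternative starts.
Ciart: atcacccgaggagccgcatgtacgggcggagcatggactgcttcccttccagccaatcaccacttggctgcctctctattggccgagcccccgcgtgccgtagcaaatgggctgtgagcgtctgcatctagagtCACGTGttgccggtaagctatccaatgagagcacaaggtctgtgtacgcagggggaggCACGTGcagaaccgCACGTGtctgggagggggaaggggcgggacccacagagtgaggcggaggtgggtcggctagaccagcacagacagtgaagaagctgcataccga
Tef, upstream start: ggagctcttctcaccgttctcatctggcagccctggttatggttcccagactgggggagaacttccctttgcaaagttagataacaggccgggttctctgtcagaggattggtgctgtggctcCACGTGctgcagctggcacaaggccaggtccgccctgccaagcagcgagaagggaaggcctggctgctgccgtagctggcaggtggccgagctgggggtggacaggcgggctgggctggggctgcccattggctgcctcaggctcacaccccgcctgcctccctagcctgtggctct
Tef, downstream start: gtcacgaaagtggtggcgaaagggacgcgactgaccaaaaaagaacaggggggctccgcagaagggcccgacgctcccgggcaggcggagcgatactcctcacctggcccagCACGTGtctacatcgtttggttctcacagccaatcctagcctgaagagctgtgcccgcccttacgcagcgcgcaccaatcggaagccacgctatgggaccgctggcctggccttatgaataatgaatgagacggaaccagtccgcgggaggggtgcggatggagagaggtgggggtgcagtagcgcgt

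The Ciart promoter held CACGTG at 3 places, with first bases at -116, -58 and -44 from the start. Each Tef promoter held it once, at -127 and -138. Of the other members, the promoter of Bhlhe41 (chr6:145865371-145865670, minus strand) held it once, at -153, and those of Dbp, Hlf and Nfil3 did not hold it within this window. Bhlhe40 was not among the sequences used. CACGTG reads the same on both strands and was found in 7.15% of all 32851 promoters of this length. The variant E-box CACGTT and the D-box letters TTATGTAA and TTACGTAA, searched on both strands, stood in 4.68%, 0.938% and 0.119% of all promoters and in none of the 7 promoters of the members. AGGTCA, the core letters of the element bound by ROR and REV-ERB receptors, stood in 16.3% of all promoters and, among the members, in that of Nfil3 (chr13:52980990-52981289, minus strand) at -12. A match in these letters is a description of the sequence and shows no binding.

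Signals are log2 values from RMA, a procedure that corrects background, sets the arrays to a common distribution and summarises the probes of a probe set. The tissue label was borne out by its markers, since 9 of 9 cardiomyocyte markers lay above the 95th percentile of the array's negative controls on all 12 arrays. That percentile, used here as the edge of background, lay between 5.39 and 5.60 on the 12 arrays. Dbp, Bhlhe40 and Bhlhe41 lay above it on 12 of 12 arrays, Ciart on 6, Hlf and Nfil3 on 1 each and Tef on 0. For Tef, between 85.8% and 94.6% of the negative control probe sets were dimmer. No fold between groups is given where a group's mean lay below this edge, and a log2 change is then a difference of signals near background. Atrial tissue was unevenly present, with a mean over 5 atrial markers of 4.96 to 5.36 on AngIV arrays, 4.55 to 8.11 on DM arrays and 5.11 to 8.58 on NC arrays. Of these 5 markers, 1 to 2 lay above the edge of background on AngIV arrays, 1 to 4 on DM arrays and 2 to 4 on NC arrays, and Myl7, the atrial myosin light chain, was below it on all AngIV arrays, DM replicate 3 and NC replicates 2 and 4. The mean over 8 macrophage markers was 5.85 to 6.77 on AngIV arrays, 5.80 to 7.02 on DM arrays and 5.77 to 6.04 on NC arrays, and 4 to 7, 4 to 8 and 5 of the 8 lay above the edge. In tissue of mixed cells, fewer cells of a type and less RNA per cell cannot be told apart.

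Differences were tested with limma, a linear model whose error estimates borrow strength across genes, over all 12 arrays, and a gene was called at a Benjamini-Hochberg adjusted p under 0.05 over the 13653 genes. In AngIV against NC, 2 of 7 members rose, Tef and Ciart, and 0 fell, where 2.15% of all genes were called and 1.52% were called higher. At an unadjusted limma p under 0.05, 3 members had a higher signal, where 10.9% of genes did. All 7 log2 changes were positive, with a median of 0.48 beside 0.00 over all genes. The 95% intervals of Dbp, Nfil3, Bhlhe40 and Bhlhe41 included 0, and members that vary together over arrays are not independent. Against NC, DM had 0 of 7 members called, where 0.022% of all genes were called, and 3 members had a higher signal at an unadjusted limma p under 0.05, where 5.62% of genes did. In AngIV against DM, 0 of 7 members and 0% of all genes were called, and 1 member, Hlf, had a higher signal at an unadjusted p under 0.05, where 5.27% of genes did. No member had every AngIV array above every DM array, where 3.57% of genes did. The comparisons share arrays, so their values are given side by side and are not independent.

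Dbp, the PAR bZIP factor with the largest daily swing in many tissues, had log2 signals of 9.36, 9.11, 8.88 and 8.23 on AngIV replicates 1 to 4, 8.38, 9.18, 9.69 and 9.56 on DM replicates 1 to 4, and 7.82, 8.17, 8.58 and 8.77 on NC replicates 1 to 4. The 3 groups overlapped, with AngIV replicate 4 and DM replicate 1 inside the NC range and the other 6 diabetic arrays above it. The means were 8.89 ± 0.48 in AngIV, 9.20 ± 0.59 in DM and 8.33 ± 0.42 in NC (SD, n = 4 each). DM was 1.82-fold above NC, a log2 change of 0.87 ± 0.29 (SE) with a 95% interval from 0.25 to 1.48, which did not pass (limma unadjusted p = 0.00918, adjusted p = 0.290). AngIV was 1.47-fold above NC, with an interval from -0.06 to 1.18 (limma adjusted p = 0.317). Between AngIV and DM the log2 change was -0.31, with an interval from -0.92 to 0.31 (limma adjusted p = 0.769). The intervals between neighbours in the order DM, AngIV and NC thus included 0, which does not show that neighbours were equal. DM minus NC was 1.14 without DM replicate 1 (limma adjusted p = 0.188).

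Tef, thyrotroph embryonic factor, had 5.12, 5.32, 5.38 and 5.21 on the AngIV arrays, 5.02, 5.11, 5.31 and 5.04 on the DM arrays and 4.36, 4.62, 4.73 and 4.72 on the NC arrays. Every diabetic array lay above every NC array, while AngIV and DM overlapped. Groups did not overlap in this direction for 7.59% of all genes in AngIV against NC and for 2.84% in DM against NC. Tef averaged 5.26 ± 0.11 in AngIV, 5.12 ± 0.13 in DM and 4.61 ± 0.17 in NC (SD, n = 4 each). It rose in AngIV against NC by a log2 change of 0.65 ± 0.11 (SE) with an interval from 0.42 to 0.89 (limma adjusted p = 0.00876). In DM against NC the log2 change was 0.51 ± 0.11 (limma unadjusted p = 0.000308, adjusted p = 0.10), and in AngIV against DM it was 0.14, with an interval from -0.10 to 0.37. With the atrial markers as a covariate the change in AngIV against NC was 0.55 (limma adjusted p = 0.0219), and with the arrays that held Myl7 above background left out, which leaves 4 AngIV, 1 DM and 2 NC arrays, it was 0.59 and no longer called (limma adjusted p = 0.0748). The part of macrophage content was not tested.

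Hlf, hepatic leukemia factor, had 5.03, 5.82, 5.46 and 5.04 on the AngIV arrays, 4.98, 5.05, 4.75 and 4.90 on the DM arrays and 4.78, 4.59, 5.14 and 4.94 on the NC arrays. AngIV replicates 2 and 3 were the highest of all 12 arrays, and the other 2 AngIV arrays lay inside the range of the DM and NC arrays. The means were 5.34 ± 0.38 in AngIV, 4.92 ± 0.13 in DM and 4.86 ± 0.23 in NC (SD, n = 4 each). The log2 change was 0.42 ± 0.17 (SE) in AngIV against DM (limma unadjusted p = 0.0240, adjusted p = 0.518), 0.48 ± 0.17 in AngIV against NC (limma unadjusted p = 0.0121, adjusted p = 0.142) and 0.06 ± 0.17 in DM against NC (limma adjusted p = 0.946). AngIV minus DM was 0.26 without AngIV replicate 2 (limma adjusted p = 0.713).

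Nfil3, the repressor that competes with the PAR bZIP factors, had 5.32, 5.15, 5.31 and 5.51 on the AngIV arrays, 5.75, 5.24, 4.84 and 4.58 on the DM arrays and 5.33, 5.35, 5.21 and 5.20 on the NC arrays. The DM arrays held both the highest and the lowest of the 12 values, so the groups overlapped fully. Nfil3 averaged 5.32 ± 0.15 in AngIV, 5.10 ± 0.51 in DM and 5.27 ± 0.08 in NC (SD, n = 4 each). The intervals of its log2 change were -0.35 to 0.45 in AngIV against NC, -0.57 to 0.23 in DM against NC and -0.18 to 0.62 in AngIV against DM, with limma adjusted p-values of 0.917, 0.802 and 0.741.

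Ciart, the repressor that binds BMAL1, had signals of 6.04, 5.66, 5.66 and 5.73 on the AngIV arrays, 4.43, 5.50, 6.12 and 6.16 on the DM arrays and 4.16, 3.76, 3.89 and 5.37 on the NC arrays. All AngIV arrays lay above all NC arrays, while DM replicate 1 and NC replicate 4 each stood nearer to the other group than to their own. Ciart averaged 5.77 ± 0.18 in AngIV, 5.55 ± 0.81 in DM and 4.30 ± 0.74 in NC (SD, n = 4 each). It rose in AngIV against NC by a log2 change of 1.47 ± 0.36 (SE) with an interval from 0.70 to 2.25 (limma adjusted p = 0.0485). All NC arrays read below the edge of background, so no fold between the groups is given. The AngIV mean stood 1.22-fold above the mean edge of the NC arrays, a point value without an error. On the AngIV arrays between 95.6% and 96.9% of the negative control probe sets were dimmer than Ciart. In DM against NC the log2 change was 1.26 ± 0.36 (limma unadjusted p = 0.00346, adjusted p = 0.223), and it was 1.63 without DM replicate 1 (limma adjusted p = 0.126).

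The call of Ciart lay at the threshold. Leaving out 1 array at a time gave 1.30 to 1.83, and the call in AngIV against NC was lost in 8 of 12 such fits, those without any 1 AngIV array, DM replicate 2, or NC replicate 1, 2 or 3, with limma adjusted p-values from 0.0598 to 0.122. With the atrial markers as a covariate the change was 1.14 and was not called (limma adjusted p = 0.113). Without the arrays that held Myl7 above background it was 1.21 (limma adjusted p = 0.159). In AngIV against DM the interval of Ciart ran from -0.55 to 0.99.

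Bhlhe40, which represses through E-boxes and also responds to hormones and stress, had 7.82, 7.37, 7.65 and 7.71 on the AngIV arrays, 7.18, 7.81, 8.09 and 7.85 on the DM arrays and 7.27, 7.18, 7.60 and 7.67 on the NC arrays. The groups overlapped. The means were 7.64 ± 0.19 in AngIV, 7.73 ± 0.39 in DM and 7.43 ± 0.24 in NC (SD, n = 4 each). AngIV was 1.16-fold and DM 1.23-fold above NC, with intervals of the log2 change from -0.17 to 0.59 and from -0.07 to 0.68 (limma adjusted p = 0.570 and 0.577).

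Bhlhe41, its close relative, had 7.71, 7.65, 7.64 and 7.49 on the AngIV arrays, 6.82, 7.93, 8.21 and 8.21 on the DM arrays and 7.53, 7.29, 7.40 and 7.61 on the NC arrays. DM replicate 1 was the lowest of the 12 arrays and the other 3 DM arrays were the highest. Bhlhe41 averaged 7.62 ± 0.09 in AngIV, 7.79 ± 0.66 in DM and 7.46 ± 0.14 in NC (SD, n = 4 each). The log2 change of DM against NC was 0.33 ± 0.23 (SE; limma adjusted p = 0.656) with all arrays and 0.66 without DM replicate 1 (limma adjusted p = 0.112), and that of AngIV against NC was 0.17, with an interval from -0.33 to 0.66. In AngIV against DM it was -0.17 with all arrays, with an interval from -0.66 to 0.33, and -0.49 without DM replicate 1 (limma adjusted p = 0.155).

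**Figure D1:**
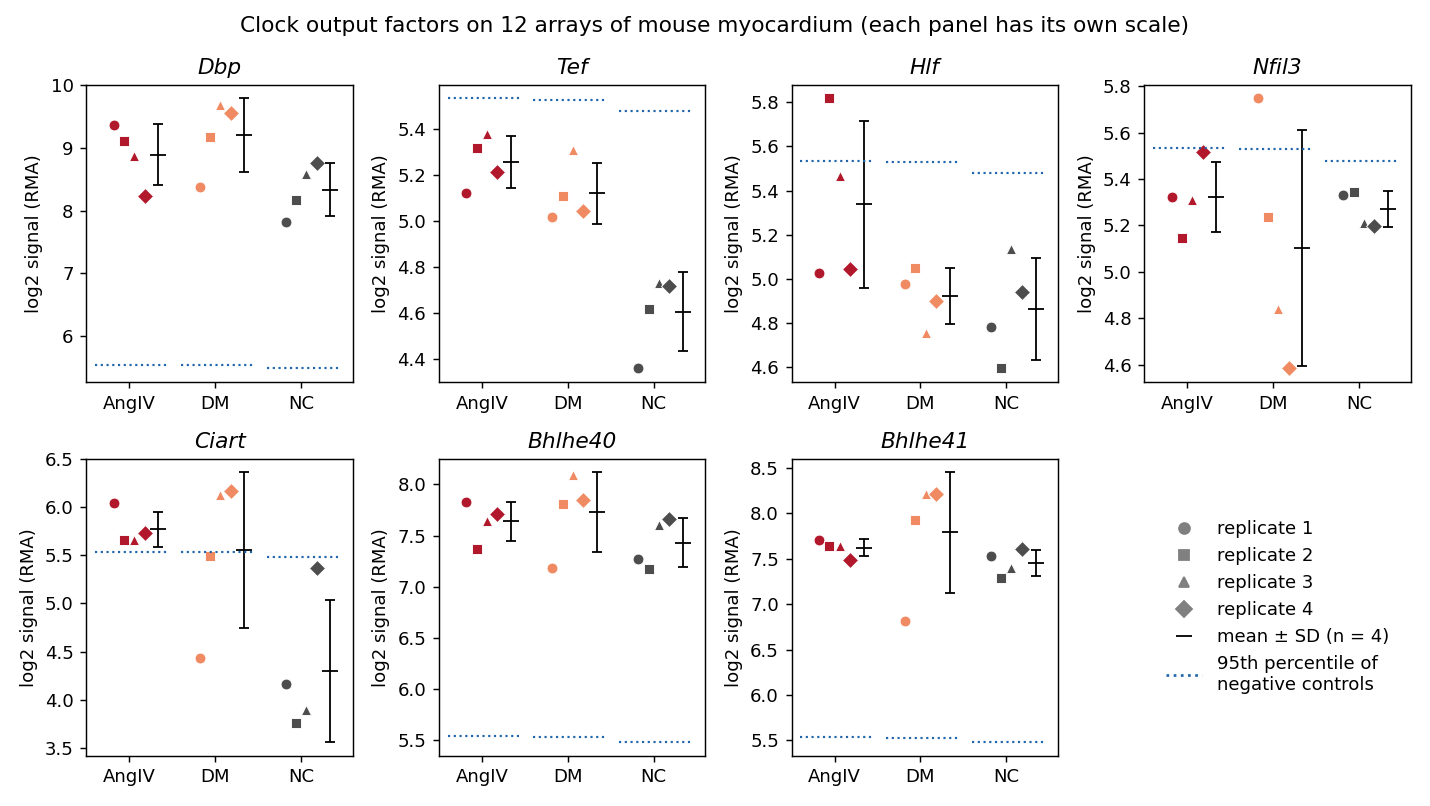
Log2 RMA signal of each clock output factor (vertical axes, a scale of its own per panel) on the 4 AngIV, 4 DM and 4 NC arrays. Marker shapes are replicates, black bars the mean ± SD and dotted lines the group mean of the 95th percentile of the negative controls. All 8 diabetic arrays lie above the 4 NC arrays for Tef, which reads below the dotted lines throughout, and DM replicate 1 is the lowest DM array for Ciart and Bhlhe41.

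**Figure D2:**
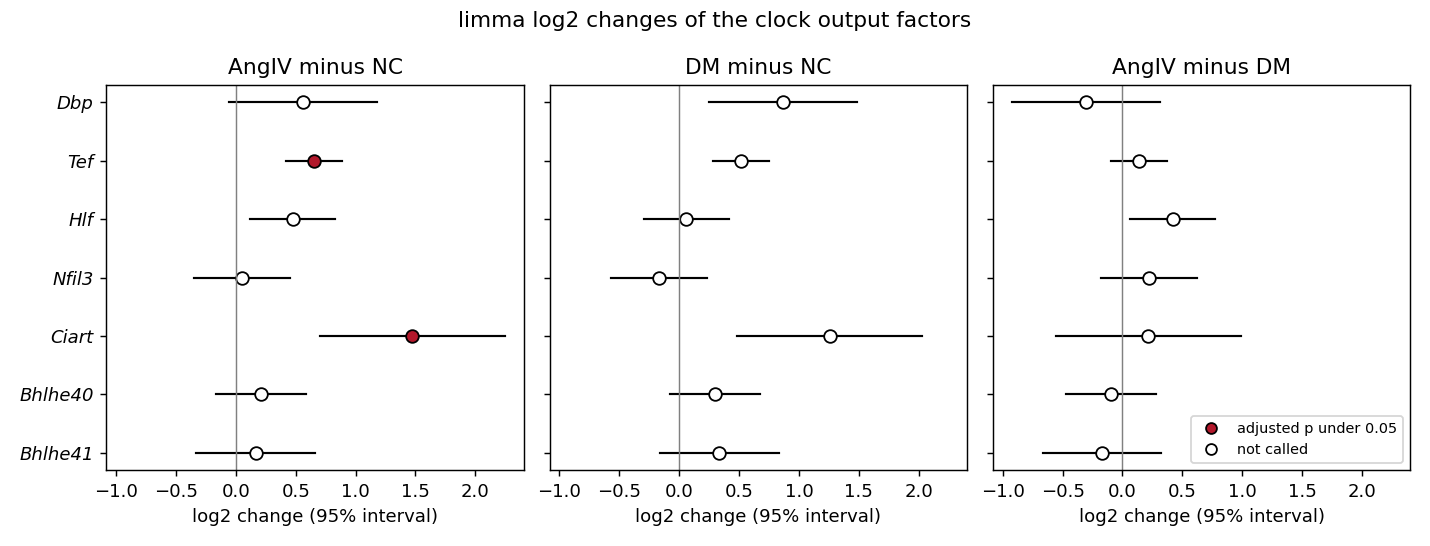
limma log2 change of each clock output factor (points) with its 95% interval (lines) in AngIV against NC, DM against NC and AngIV against DM. Filled points are the 2 calls, Tef at 0.65 and Ciart at 1.47 in AngIV against NC, and all other points are not called.

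Exact permutation tests of the difference of means, two-sided and over the 70 ways to split 8 arrays, cannot go below p = 0.0286. Of 21 such tests, 1 for each member and pair of groups, that value was reached by Tef and Ciart in AngIV against NC and by Tef in DM against NC. It is reached only where the groups do not overlap, so it restates that. Over all genes, 7.59% were higher without overlap in AngIV against NC and 2.84% in DM against NC. The 21 p-values were not adjusted. For Ciart in DM against NC the exact permutation p was 0.0571 (n = 4 each), and for Dbp there it was 0.0857 (n = 4 each).

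Taking the diabetic groups together, the mean of AngIV and DM was set against NC. Again 2 of 7 members rose and 0 fell, where 1.32% of all genes were called and 0.908% were called higher, and 3 had a higher signal at an unadjusted limma p under 0.05, where 9.02% of genes did. Every diabetic array lay above every NC array for 1 member, Tef, and for 1.44% of genes. Tef had a mean of 5.19 over the diabetic arrays and 4.61 over the NC arrays, a log2 change of 0.58 ± 0.10 (SE; limma adjusted p = 0.0119). Ciart had 5.66 over the diabetic arrays and 4.30 over the NC arrays, a log2 change of 1.37 ± 0.31 (limma adjusted p = 0.0456). The call of Ciart was lost in 10 of 12 fits that left out 1 array, all but those without DM replicate 1 or NC replicate 4, with limma adjusted p-values from 0.050 to 0.138. The log2 change of Dbp was 0.71 ± 0.25 (limma adjusted p = 0.167), a 1.64-fold difference, and Nfil3 had -0.06 with an interval from -0.40 to 0.29.

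DM replicate 1 was the lowest DM array for Dbp, Tef, Ciart, Bhlhe40 and Bhlhe41 and the highest for Nfil3, where 27.6% of all genes were lowest and 27.8% highest on it. Its log2 signal minus the mean of the other 3 DM arrays was -1.10 for Dbp, -1.50 for Ciart, -0.74 for Bhlhe40 and -1.30 for Bhlhe41. For Nfil3 this difference was 0.86, and for Tef and Hlf it was -0.14 and 0.08. By Dixon's test at the 95% level none of the 21 sets of 4 arrays, 1 for each member and group, held an outlier, and on DM replicate 1 the ratio was 0.614 for Ciart and 0.794 for Bhlhe41. The standard deviation was widest in DM for 5 of 7 members and for 35.3% of all genes. On this array the mean of the 8 macrophage markers was the highest of DM, at 7.02 beside 5.80 to 6.47 on the other DM arrays, and the atrial mean was 7.62, within the range of the others. Whether either had a part in the low values was not tested.

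Correlations between members over arrays were computed for all pairs. With each group's mean taken out, 5 of 21 pairs had a correlation that passed after adjustment over the 21 pairs, by permutation of arrays within groups, 3 positive and 2 negative. The weakest of these had a size of 0.74, which 6 of 21 member pairs, or 28.6%, and 1.92% of all pairs of tested genes reached. That size was taken from the member pairs themselves, so the shares describe and do not test. Bhlhe40 with Bhlhe41, at a group-centred r of 0.79, reached it but did not pass (permutation adjusted p = 0.0786). Nfil3 and Bhlhe41 ran against each other, with a group-centred r of -0.90 (permutation p = 0.00529, adjusted p = 0.0370, n = 12 arrays), -0.71 without DM replicate 1 and -0.63 without the 2 arrays farthest from the centred median of Nfil3. Before centring, Pearson's r was -0.88 (permutation p = 0.000570, adjusted p = 0.0114), Spearman's rho was -0.76 (permutation p = 0.00659, adjusted p = 0.0193), and r was -0.73 without the 2 arrays farthest from the median of Nfil3. Dbp and Nfil3 had a group-centred r of -0.79 (permutation p = 0.00326, adjusted p = 0.0342), -0.61 without DM replicate 1 and -0.57 without the 2 farthest arrays. Their values before centring were r = -0.70 (permutation p = 0.00849, adjusted p = 0.0198), rho = -0.74 (permutation p = 0.00735, adjusted p = 0.0193) and r = -0.71 without the 2 arrays farthest from the median of Dbp.

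Ciart and Bhlhe41 varied in the same direction over arrays, with a group-centred r of 0.82 (permutation p = 0.000810, adjusted p = 0.0170), 0.79 without DM replicate 1 and 0.90 without the 2 farthest arrays. Before centring r was 0.72 (permutation p = 0.00649, adjusted p = 0.0170), rho was 0.79 (permutation p = 0.00352, adjusted p = 0.0148) and r was 0.73 without the 2 arrays farthest from the median of Ciart. The other pairs that passed were Dbp with Bhlhe41 and Ciart with Bhlhe40, at a group-centred r of 0.74 and 0.79. Without DM replicate 1 these were 0.60 and 0.59, and without the 2 farthest arrays they were 0.51 and 0.63. Tef and Hlf were in no pair that passed with the group means taken out. All correlations share the normalization of the same 12 arrays. Those of Nfil3 rest on signals near background, and those of Ciart partly do, since it lay above the edge on 6 of 12 arrays.

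**Figure D3:**
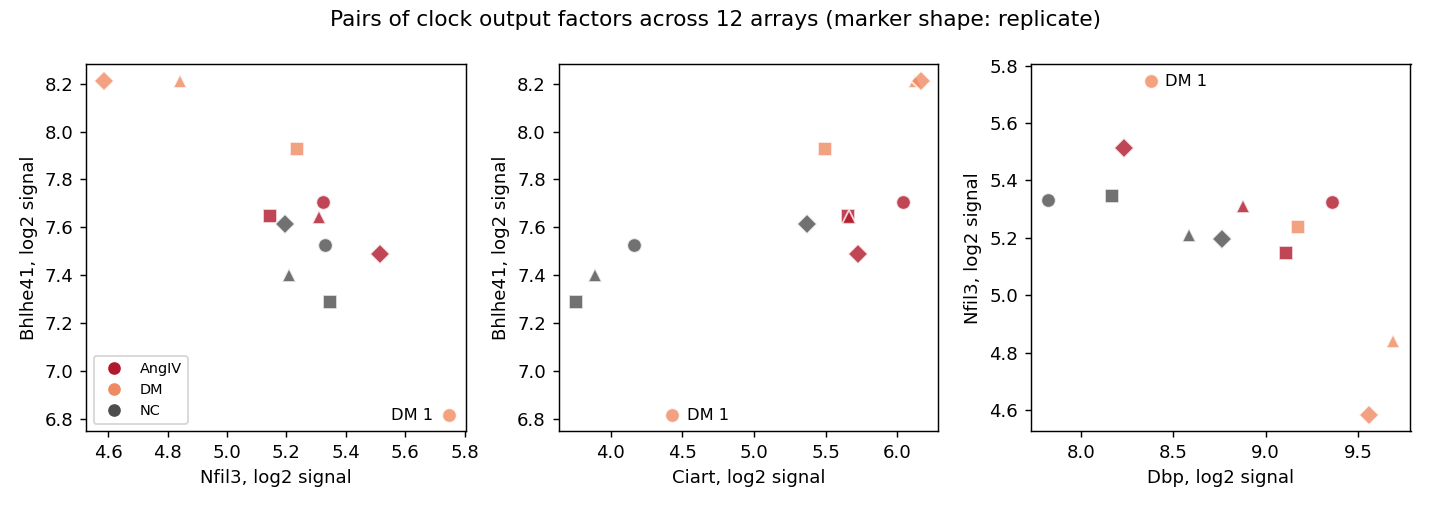
Log2 signals of 3 pairs of clock output factors, Bhlhe41 against Nfil3, Bhlhe41 against Ciart and Nfil3 against Dbp, 1 marker per array, coloured by group and shaped by replicate. DM replicate 1 and DM replicates 3 and 4 lie at opposite ends of the Nfil3 axis, with the AngIV and NC arrays between them. On the Dbp axis NC replicates 1 and 2 and AngIV replicate 4 lie below DM replicate 1.

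The core clock genes, which drive these outputs, were counted from a list of 19 genes, of which 17 had a probe set and 15 were tested. In AngIV against NC 4 rose and 2 fell, where 1.52% of all genes were called higher and 0.623% lower, with a median log2 change of 0.40 beside 0.00 over all genes. In DM against NC 0 rose and 1 fell, with a median of 0.20, where 0% of all genes were called higher and 0.022% lower. In AngIV against DM 0 were called, where 0% of all genes were. Arntl, which encodes BMAL1, averaged 3.70 ± 0.27 in AngIV, 4.40 ± 0.13 in DM and 5.78 ± 0.17 in NC (SD, n = 4 each). It fell by 2.07 in AngIV against NC (limma adjusted p = 2.39e-06) and by 1.38 in DM against NC (limma adjusted p = 0.000596) on the log2 scale, both diabetic means being below the edge of background. Clock averaged 7.15 ± 0.12 in AngIV, 7.42 ± 0.13 in DM and 7.81 ± 0.05 in NC, and fell in AngIV against NC (limma adjusted p = 0.00617).

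The period genes Per2 and Per3, whose proteins repress BMAL1 and CLOCK, rose in AngIV against NC by log2 changes of 1.13 ± 0.13 and 1.19 ± 0.15 (SE; limma adjusted p = 0.00106 and 0.00282). The cryptochrome gene Cry2 rose by 0.61 ± 0.13 and Nr1d2, a repressor of Arntl, by 0.76 ± 0.11 (limma adjusted p = 0.030 and 0.00602). Per2 in DM and NC, Per3 in NC and Cry1 in all 3 groups averaged below the edge of background. Nr1d1, a close relative of Nr1d2, averaged 6.70 ± 0.30 in AngIV, 7.28 ± 0.46 in DM and 7.25 ± 0.43 in NC (SD, n = 4 each). Its log2 change was -0.54 in AngIV against NC and -0.58 in AngIV against DM, neither called (limma adjusted p = 0.233 and 0.526). Per1 and Cry1 had 0.49 and 0.40 in AngIV against NC, neither called (limma adjusted p = 0.14 and 0.18). Nr1d1, Per1 and Cry1 lie outside the naming rule there and were added after their values were seen. For DM against NC, Per2 had 0.61, Per3 0.82 and Nr1d2 0.49, none of them called (limma adjusted p = 0.0984, 0.0681 and 0.123). In AngIV against DM the core clock genes with the smallest p, none called, were Arntl at -0.70, Per2 at 0.52, Clock at -0.27 and Cry1 at 0.38. DM replicate 1 was the lowest DM array for 2 of the 15 core clock genes, Nr1d1 and Rorb, the highest for 7 and inside the range of the other DM arrays for 6.

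**Figure D4:**
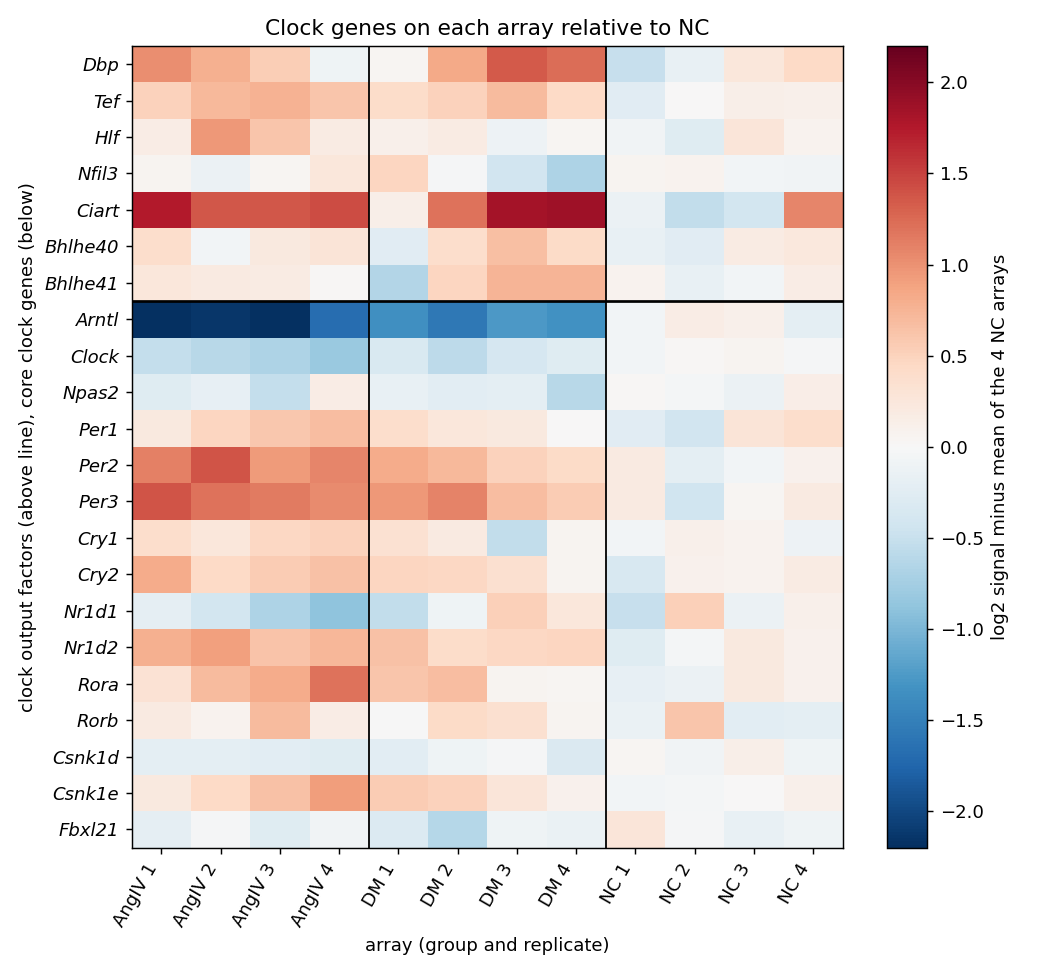
Log2 signal minus the mean of the 4 NC arrays (colour) for the 7 clock output factors, above the line, and the 15 tested core clock genes, below it, on each array (columns). Ciart and Tef are red on the AngIV arrays while Arntl and Clock are blue.

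Genes that other studies tie to the PAR bZIP factors, mostly in mouse liver, were counted from a list of 10, of which 9 had a probe set and 7 were tested. None of the 7 was called in AngIV against NC, DM against NC or AngIV against DM, and at an unadjusted limma p under 0.05 the signal was higher for 2 and lower for 1 in AngIV against NC, higher for 3 and lower for 0 in DM against NC, and higher for 0 and lower for 1 in AngIV against DM. Over all genes, 10.9%, 5.62% and 5.27% were higher at that threshold. The shares that were lower are not given, so the counts of lower genes have no background beside them. The acyl-CoA thioesterase gene Acot2 averaged 8.66 ± 0.46 in AngIV, 9.09 ± 0.53 in DM and 8.02 ± 0.14 in NC (SD, n = 4 each), a log2 change of 0.65 in AngIV against NC and 1.07 in DM against NC (limma adjusted p = 0.169 and 0.115). Its relatives Acot3 and Acot4 had 0.49 and 0.62 in DM against NC, both near background. Acot3 had 0.34 in AngIV against NC. Pdxk, which encodes pyridoxal kinase, had 0.42 there (limma adjusted p = 0.187). Nr1i3, which encodes the nuclear receptor CAR, had -0.32 there (limma adjusted p = 0.203), and Ppara had -0.18 in DM against NC. Nr1i3 in all 3 groups and Pdxk in DM and NC averaged below the edge of background. In AngIV against DM the 4 of smallest p, none called, were Acot4 at -0.39, Nr1i3 at -0.23, Acot2 at -0.43 and Pdxk at 0.23.

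Genes described as driven by the clock in heart were counted from a list of 11, of which 10 were tested. In AngIV against NC 6 rose and 0 fell, where 1.52% of all genes were called higher and 0.623% lower, with a median log2 change of 0.55 beside 0.00 over all genes. None was called for DM against NC or AngIV against DM, with medians of 0.38 and 0.26. Those that rose in AngIV against NC were Wee1, a brake on mitosis, at 0.86 ± 0.14 (SE), the PI3 kinase subunit gene Pik3r1 at 0.87 ± 0.17, and Dgat2, which makes triglyceride, at 0.57 ± 0.10. They also included the ubiquitin protease gene Usp2 at 0.67 ± 0.15, Klf15, a regulator of nutrient use, at 0.67 ± 0.16, and Nampt, an enzyme of NAD synthesis, at 0.52 ± 0.12, with limma adjusted p-values of the 6 from 0.00778 to 0.0412. In DM against NC the 4 of smallest p, none called, were Usp2 at 0.47, Wee1 at 0.41, Klf10 at 0.71 and Klf9 at 0.43, and in AngIV against DM they were Nampt at 0.47, Dgat2 at 0.38, Wee1 at 0.45 and Pik3r1 at 0.51. Klf10, next in order of p and added after its values were seen, had -0.79 there (limma unadjusted p = 0.00883, adjusted p = 0.464).

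The genes whose signals over the 12 arrays were most like those of a member were found by Pearson's r among all tested genes, as a description without a test. For Tef they were Pgm1 at 0.92, Dixdc1 at 0.91 and the core clock gene Nr1d2 at 0.90. For Ciart they were Gmnn at 0.92, St13 at 0.87 and Tfe3 at 0.86, and for Dbp they were Habp4 at 0.89, Adam10 at 0.84 and Hnrnpa0 at 0.84, with Ift74 at -0.89, Ip6k2 at -0.85 and Atg12 at -0.83 running most against it. Hlf was followed by Sbno1 at 0.92, Hpgd at 0.88 and Pacs1 at 0.87, and Nfil3 by Antkmt at 0.89, Mkrn1 at 0.88 and Abcc5 at 0.86. Bhlhe40 was followed by Ap1s1 at 0.87, Crtam at 0.85 and Pno1 at 0.84, and Bhlhe41 by Rps27l at 0.88, Zfp647 at 0.87 and Mrpl27 at 0.85. Only for Tef was a core clock gene among these 3. The group means were not taken out here, and Tef and Nr1d2 both had their lowest mean in NC and their highest in AngIV. Such values of r are also easily reached when the highest are picked from all tested genes over only 12 arrays.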

How the data were processed

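Total RNA of 12 myocardial samples was extracted with Trizol, and 6 micrograms were labelled with biotin for single-colour Affymetrix arrays, per the labels' protocols. The authors deposited 1 table of log2 signals for 29129 probe sets, with RMA named in the submitters' processing notes and the scale judged from the range of values. Its version, chip file and build are not given in the sources used here. Groups were taken from the titles, since the disease state tag contradicts them. Titles number replicates 1 to 4 per group and name no shared litter or day. Deviations of same-numbered arrays correlated at -0.12 to 0.21, beside -0.21 to 0.23 for other numbers, and arrays were not paired. Within a group arrays correlated at 0.961 to 0.986. Of 22206 transcript probe sets, 19572 had 1 symbol, 2634 none and 0 several, and 6923 control probe sets were left out. The brightest probe set stood for a gene and the dimmest 30% of genes, under a mean of 3.40, were left out. limma 3.58.1 in R 4.3.3 was fitted on a mean per group and was tested on simulated data. p-values reach only the spread between these arrays, whose number limits precision (median standard error of a log2 change 0.127). The members, gene lists and tests were chosen with earlier results of these data known. All members are named. From the core clock, PAR bZIP and clock-driven lists, called genes and otherwise the 4 of smallest p are named, with the 3 genes most like each member. Other fits varied the filter, prior, normalization, arrays, block and atrial content.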

Additional observations from a re-analysis of the deposited data

How the results depend on the processing

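Of 728 recomputed values, 662 kept their direction and their side of the threshold. Of the others, 29 log2 changes lost their call, 10 turned in sign and 27 counts of members called moved. Much of the agreement was fixed beforehand. Another filter or prior leaves a log2 change as it is, as does leaving out an array of a group not compared. Most members were also uncalled and far from the threshold. In AngIV against NC the number of members called was 1, Tef alone, in place of 2 with no filter on dim genes, with a robust prior, with quantile normalization of the named genes and with the atrial covariate, and 0 without the arrays that held Myl7 above background, an alternative chosen after seeing the data. For AngIV and DM together against NC it was 1 in place of 2 with no filter, a robust prior or quantile normalization, and 0 without the Myl7 arrays. Leaving out 1 array gave 1 to 2 in both. The cause was not tested. The fit of only the compared groups is the same as that of all groups for the joint comparison, and averaging probe sets left the 7 members as they were, since each had 1.

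Changes that were near 0 turned. Without the Myl7 arrays DM is 1 array, replicate 3, which is taken to vary like the other groups. In AngIV against DM, Ciart was -0.18 with the atrial covariate and -0.35 without the Myl7 arrays, where Tef was -0.052, and leaving out 1 array gave -0.16 to 0.42 for Ciart and -0.28 to 0.027 for Bhlhe40. In DM against NC, Hlf was -0.013 without the Myl7 arrays and -0.033 to 0.15 with 1 array left out, where Nfil3 ran from -0.38 to 0.0045. Nfil3 ran from -0.011 to 0.11 in AngIV against NC and from -0.17 to 0.029 in the joint comparison. The cause was not tested.

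Counts over all genes moved more. The 293 genes called in AngIV against NC were 492 with the dimmest 50% left out, 576 with a trend in the prior, 466 with only these groups fitted, 102 without the Myl7 arrays and 104 to 469 with 1 array left out. The 3 genes called in DM against NC were 20 with the dimmest 50% left out, 29 with a trend in the prior, 5 with only these groups fitted or with the atrial covariate, 0 without the Myl7 arrays and up to 30 with 1 array left out, and the 0 in AngIV against DM reached 5 without AngIV replicate 2. The 180 of the joint comparison ran from 49 to 338 with 1 array left out, with 328 for the dimmest 50% left out, 433 under a trend in the prior, 316 with the atrial covariate and 1 without the Myl7 arrays. With the replicate number as a block, the members called were 2 in AngIV against NC, 0 in DM against NC, 0 in AngIV against DM and 2 in the joint comparison, and genes called in AngIV against NC were 218. The deviations gave no sign that the numbers pair the arrays. Of the same-numbered pairs, 2 of 12 had a correlation of deviations over 0.1, and 2 of 12 arrays had their best match in another group under their own number. These values cannot show whether same-numbered mice shared a litter, day or hour. Signals of Tef, Hlf and Nfil3 near background limit what their log2 changes say about amounts of RNA. The same holds for Ciart, which lay above the edge on 6 of 12 arrays.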

Other observations

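The immediate early genes, quickly induced by stimuli, were not described above and include genes that daily signals also reach. Of 14 tested, 1 rose and 1 fell in AngIV against NC, where 1.52% of all genes were called higher and 0.623% lower. In DM against NC and in AngIV against DM 0 were called, where 0.022% and 0% of all genes were. Dusp1, a phosphatase of MAP kinases, averaged 7.54 ± 0.26 in AngIV, 8.03 ± 0.25 in DM and 8.26 ± 0.03 in NC (SD, n = 4 each), and fell in AngIV against NC by 0.71 on the log2 scale (limma adjusted p = 0.0165). Ier3, a regulator of cell survival, rose by 0.74 ± 0.16 (SE; limma adjusted p = 0.0254). Btg2, an inhibitor of proliferation, had -0.59 ± 0.15 (limma adjusted p = 0.0519). The median log2 change of the list was -0.18 in AngIV against NC, -0.02 in DM against NC and -0.08 in AngIV against DM, beside 0.00, 0.00 and 0.01 over all genes.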
